A study of Mus musculus with 8 samples.

Results

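The nuclear genes for the subunits of the mitochondrial respiratory chain and of ATP synthase were examined in mouse bone marrow-derived macrophages (BMMs), primary macrophages that grow out of marrow cells under the growth factor M-CSF. Members were taken by symbol from the deposited gene table: the Ndufa, Ndufb, Ndufc, Ndufs and Ndufv genes of complex I, Sdha to Sdhd of complex II, Cyc1 and the Uqcr genes of complex III, the Cox4 to Cox8 families of complex IV, and the Atp5 genes of complex V. The rule gave 78 of 11541 genes, 34 in complex I, 4 in complex II, 9 in complex III, 14 in complex IV and 17 in complex V. Ndufa4 was placed in complex IV, where its protein sits despite its name. Atp5sl was counted in complex V by its symbol, although its other name, Dmac2, is on the list of complex I assembly factors used below. The values of complex V therefore include it. All 78 members were tested, with 18 to 48171 reads per gene and library. The subunits that mitochondrial DNA encodes were not analysed here.

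The study compared 4 libraries labelled Ogfrl1 knockout (KO) with 4 labelled wild type (WT). All 8 came from non-adherent marrow cells cultured for 4 days with M-CSF at 25 ng/mL, with no other agent named in the labels. Polyadenylated RNA was sequenced from total RNA. The labels give neither the strain, the age, the altered exons of Ogfrl1 nor whether each library came from its own mouse. Replicates were numbered in accession order, so equal numbers in the groups pair nothing.

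Complexes I to IV pass electrons from NADH and succinate to oxygen in the inner mitochondrial membrane, and complexes I, III and IV pump protons while doing so. Complex V, the ATP synthase, lets the protons flow back and makes ATP. Most of the subunits are encoded in the nucleus and are imported and assembled with the few that mitochondrial DNA encodes. In macrophages the balance between this respiration and glycolysis is known to shift with activation.

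The table held 47779990 to 53567289 reads in the KO-labelled libraries and 39601341 to 61556269 in the WT-labelled libraries, and members took 0.510 to 0.636% of them. Ogfrl1 itself averaged 163 ± 23.7 CPM (counts scaled to library size with TMM factors) under the KO label, against 213 ± 73.8 CPM under the WT label (SD, n = 4 each). WT-labelled replicate 4 had 135 CPM of it, less than any KO-labelled library. An exact two-sided permutation test over 70 assignments gave p = 0.314, where 0.0286 is the smallest p possible. The log2 fold change was -0.39 with all libraries and 0.12 without WT-labelled replicates 1 and 2, so reads on Ogfrl1 do not check the labels. All 14 macrophage markers looked for were in the table, Lyz2 and Csf1r among them, and their summed level was 23651 to 25884 CPM in KO-labelled against 20690 to 24996 CPM in WT-labelled libraries. WT-labelled replicates 1 and 2 stood apart from the rest. They had 6.07 and 7.03% mitochondrial reads and 1.79 and 1.83% ribosomal RNA reads, against 1.49 to 3.17% and 2.71 to 9.10% in the other libraries.

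No member passed the threshold in the comparison of KO-labelled with WT-labelled libraries. By edgeR's quasi-likelihood test with Benjamini-Hochberg adjustment over all genes, 0 of 78 members had an adjusted p under 0.05, beside 0% of all 11541 genes. The lowest adjusted p was 0.404, for members and for all genes alike. At an unadjusted p under 0.05 there were 4 members, Cox6c, Atp5s, Atp5j and Ndufc1, all lower in the KO-labelled libraries. That is 5.13% of members, beside 6.52% of all genes, 2.01% higher and 4.51% lower. The authors' deposited table also lists 0 members at a false discovery rate under 0.05 and gives 0.447 as the lowest rate, for members and for all genes alike. By the authors' own unadjusted p under 0.05 there were 8 members, 6 of them with negative values. Uqcrq and Atp5g1 were the positive ones, and the share over all genes was not computed there. The edgeR count at the unadjusted threshold turned on single libraries. It was 1 (Cox6c, 1.28% of members beside 1.94% of all genes) without KO-labelled replicate 1 and 9 (11.5% beside 14.1%) without replicate 2. It was 1 (Atp5s, 1.28% beside 1.16%) without replicate 3 and 4 (5.13% beside 1.64%) without replicate 4 of that group. It was 1 (Cox6c, 1.28% beside 1.36%) without WT-labelled replicate 1, 2 (Cox6c and Uqcrh, 2.56% beside 1.32%) without replicate 2, 13 (16.7% beside 14.5%) without replicate 3 and 38 (48.7% beside 45.1%) without replicate 4. Without WT-labelled replicate 4, 27 of the 38 were higher in KO and 11 lower. The larger counts came where large shares of all genes passed that threshold.

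Fold changes were small in both directions. The fitted log2 fold change was positive in 46 members and negative in 32, with a median of 0.023, beside -0.0047 over all genes. It ran from -0.80 for Uqcrb to 0.58 for Atp5g2. The 95% confidence interval stayed below a 1.5-fold difference in both directions for 45 members (57.7%, beside 60.3% of all genes) and below a 2-fold difference for 70. For those members the libraries bound the difference, and for the other genes larger differences in either direction remain possible. In bulk RNA such as this, fewer cells of a type and less RNA per cell cannot be told apart.

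**Figure D1:**
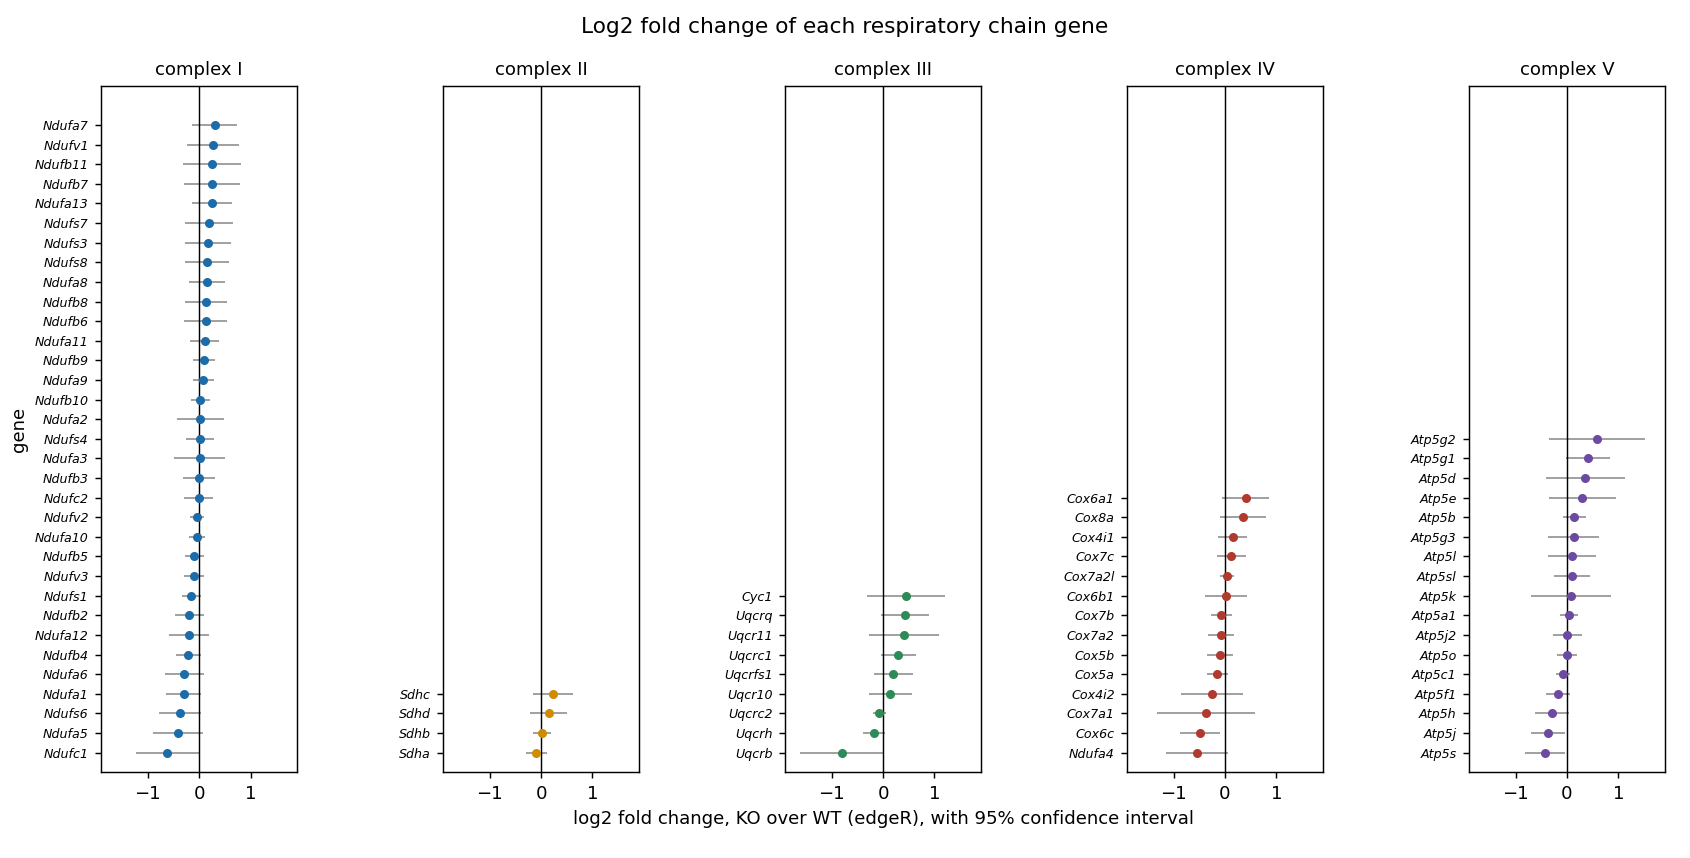
Log2 fold change of KO over WT for the genes shown, 1 panel per complex, ordered by value; points are edgeR estimates and bars their 95% confidence intervals. Most intervals cross 0, and the most negative and most positive estimates are those of Uqcrb (-0.80) and Atp5g2 (0.58).

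The sum of all members in CPM was 5677, 5557, 5638 and 6049 in the KO-labelled libraries, replicates 1 to 4, against 5497, 5214, 5564 and 6338 in the WT-labelled libraries. The groups overlapped: WT-labelled libraries were both the lowest and the highest of the 8. Means were 5730 ± 219 CPM in KO and 5653 ± 481 CPM in WT (SD, n = 4 each). By complex, the mean sum was 1274 ± 47.2 CPM in KO and 1265 ± 107 CPM in WT for complex I, and 516 ± 7.66 against 512 ± 17.8 CPM for complex II. It was 569 ± 25.5 against 569 ± 35.2 CPM for complex III, 871 ± 45.5 against 881.5 ± 89.1 CPM for complex IV, and 2500.4 ± 110.3 against 2426 ± 243 CPM for complex V. In every complex the difference of means was smaller than the SD of the WT-labelled libraries.

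**Figure D2:**
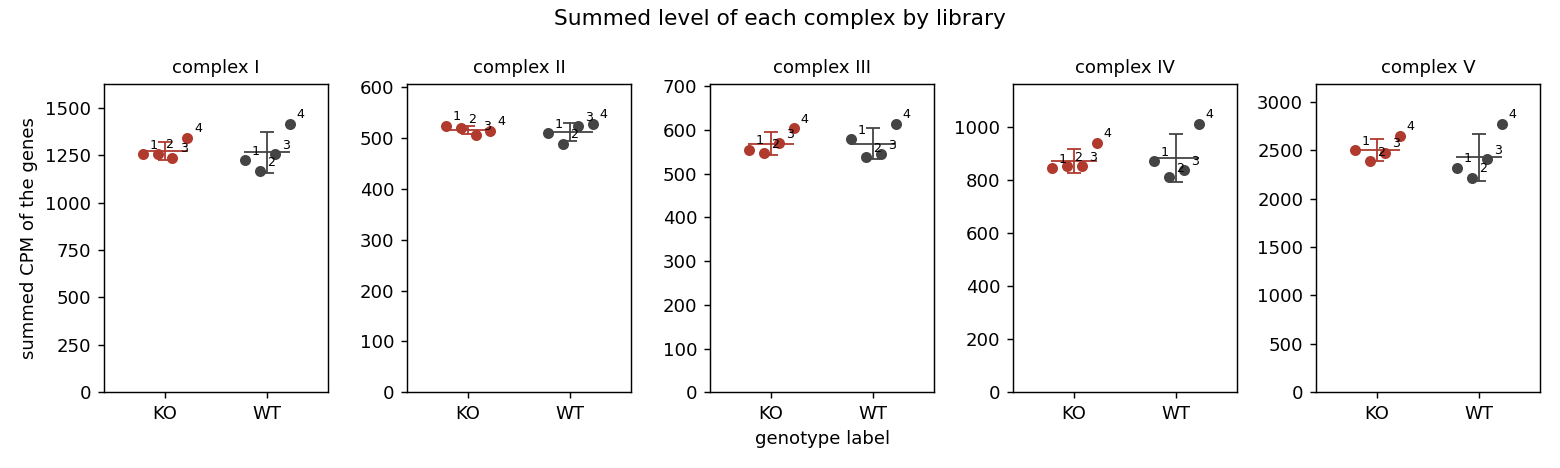
Summed CPM of the genes of each complex in each library, KO left and WT right; numbers beside points are replicates, and the dash and bar give the mean and SD of 4 libraries. The 4 KO points lie within the range of the 4 WT points for complexes I, II, III, IV and V.

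Complex I takes electrons from NADH through an NADH-oxidising (N) module, hands them to ubiquinone in a Q module, and pumps protons in a membrane P module. The log2 fold changes of its 34 genes had a median of 0.017, with 20 positive and 14 negative. It ran from -0.025 to 0.12 with single libraries left out, negative without KO-labelled replicate 4 or WT-labelled replicate 1 or 2, and was -0.070 without WT-labelled replicates 1 and 2. In the N module, 3 of 8 values were positive (median -0.073). The flavin-bearing Ndufv1 averaged 42.6 ± 5.84 CPM in KO and 35.1 ± 12.1 CPM in WT, and Ndufs1, which carries several iron-sulfur clusters, 99.9 ± 4.01 against 110.8 ± 11.6 CPM (SD, n = 4 each). Ndufs6, a zinc-binding accessory subunit, had 25.8, 36.4, 22.96 and 24.1 CPM in the KO-labelled libraries, against 44.0, 37.5, 30.9 and 29.2 CPM in the WT-labelled libraries. Its groups overlapped through KO-labelled replicate 2, and its log2 fold change was -0.37 (SE 0.18, adjusted p = 0.404). Its exons overlap those of Mrpl36 on the other strand, and no source used here states whether the counting used strand.

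In the Q module 6 of 8 values were positive (median 0.12). The P module had 11 positive and 7 negative values (median 0.015). Ndufc1, a small membrane subunit, had 9.99, 10.2, 11.5 and 13.9 CPM in the KO-labelled libraries, against 22.4, 21.9, 8.94 and 16.7 CPM in the WT-labelled libraries. WT-labelled replicate 3 lay below every KO-labelled library, so the groups overlapped. The log2 fold change of Ndufc1 was -0.61 (SE 0.27, unadjusted p = 0.048, adjusted p = 0.404 by edgeR), and it was -0.17 without WT-labelled replicates 1 and 2. Ndufa1, an X-linked subunit needed for assembly, had 15.1, 14.5, 13.2 and 17.6 CPM in KO-labelled against 19.3, 17.1, 14.8 and 23.01 CPM in WT-labelled libraries. Its log2 fold change was -0.30 (SE 0.15), with KO-labelled replicates 1 and 4 inside the WT range. Ndufb4, another membrane-arm subunit, had 12.9, 16.5, 12.1 and 14.5 CPM in KO-labelled against 16.9, 16.4, 15.6 and 15.9 CPM in WT-labelled libraries. There too 1 KO-labelled library, replicate 2, lay inside the WT range.

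Levels within complex I differed widely although most of its subunits are used in equal numbers. Per kilobase of gene length, Ndufb8 was the most abundant mRNA at 119.9 CPM per kb in KO and 109.5 in WT, and Ndufa11 the least abundant at 7.47 and 6.94 CPM per kb. The annotated length of Ndufa11 enters that value, and its exons overlap those of Vmac.

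Complex II, succinate dehydrogenase, belongs to the tricarboxylic acid cycle as well as to the chain and is encoded by nuclear genes alone. Sdha, the flavoprotein, had 288, 319, 274 and 267 CPM in the KO-labelled libraries, against 334, 308, 312 and 267 CPM in the WT-labelled libraries. The iron-sulfur subunit Sdhb had 65.8, 61.1, 66.3 and 68.7 CPM in KO-labelled against 61.3, 63.6, 61.6 and 72.5 CPM in WT-labelled libraries. Neither pair of groups separated, and the log2 fold changes were -0.089 (SE 0.090) and 0.016 (SE 0.077). The membrane anchors had positive values: Sdhc averaged 88.5 ± 9.59 CPM in KO and 75.01 ± 19.02 CPM in WT, and Sdhd 74.9 ± 7.50 against 67.4 ± 15.9 CPM (SD, n = 4 each). Without WT-labelled replicates 1 and 2, which were the lowest libraries for both anchors, the log2 fold changes turned to -0.015 for Sdhc and -0.095 for Sdhd. Per kilobase, Sdha was the most abundant of the 4 and Sdhd the least.

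Complex III passes electrons from ubiquinol to cytochrome c. Its median log2 fold change was 0.20, with 6 positive and 3 negative values. It ran from 0.10 without WT-labelled replicate 2 to 0.37 without WT-labelled replicate 4, and was -0.016 without WT-labelled replicates 1 and 2. Cyc1, cytochrome c1, had 59.6, 38.4, 69.1 and 72.2 CPM in the KO-labelled libraries, against 26.6, 28.2, 48.7 and 71.5 CPM in the WT-labelled libraries. Its log2 fold change was 0.45 (SE 0.33), and WT-labelled replicates 3 and 4 lay inside the KO range. Uqcrc1, a core subunit, had 129.9, 118, 135 and 136 CPM in KO-labelled against 85.6, 84.7, 122 and 129 CPM in WT-labelled libraries (log2 fold change 0.30, SE 0.15, adjusted p = 0.404 by edgeR). Uqcrq, a small subunit, had 27.7, 24.7, 31.2 and 36.0 CPM in KO-labelled against 16.4, 17.6, 24.6 and 30.0 CPM in WT-labelled libraries (log2 fold change 0.43, SE 0.21). For both genes WT-labelled replicate 4 lay inside the KO range, and for Uqcrc1 replicate 3 did too. The other core subunit, Uqcrc2, was the single member whose groups did not overlap, 1.28% of members beside 2.64% of all genes, 1.22% higher and 1.42% lower. It had 97.1, 99.2, 97.4 and 96.6 CPM in the KO-labelled libraries, against 107.6, 100.5, 103.4 and 99.6 CPM in the WT-labelled libraries. The difference was small, a log2 fold change of -0.075 (SE 0.057, adjusted p = 0.423), and the correction for GC content turned it to 0.037. Uqcrh, the hinge protein that contacts cytochrome c1, averaged 53.3 ± 4.44 CPM in KO and 60.4 ± 5.63 CPM in WT (SD, n = 4 each).

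Uqcrb, which binds ubiquinone near the reduction site and is the most abundant complex III mRNA per kilobase, had the most negative log2 fold change of all members. It had 64.6, 100.3, 62.0 and 65.9 CPM in the KO-labelled libraries, against 195, 172, 75.3 and 67.5 CPM in the WT-labelled libraries. The high values were those of WT-labelled replicates 1 and 2 and, less so, KO-labelled replicate 2, the 3 libraries with the most mitochondrial reads. The log2 fold change of -0.80 (SE 0.36, unadjusted p = 0.053, adjusted p = 0.404 by edgeR) became 0.037 without WT-labelled replicates 1 and 2.

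Complex IV, cytochrome c oxidase, reduces oxygen. Its catalytic core is encoded by mitochondrial DNA, and the nuclear subunits counted here surround it. The log2 fold changes of the 14 genes had a median of -0.079, with 6 positive and 8 negative, and the median ran from -0.13 without KO-labelled replicate 4 to 0.027 without WT-labelled replicate 4. Cox6c, a membrane subunit, had 56.2, 55.5, 50.2 and 60.1 CPM in the KO-labelled libraries, against 97.2, 86.7, 52.8 and 75.2 CPM in the WT-labelled libraries. WT-labelled replicate 3 lay inside the KO range and the other WT-labelled libraries above it. With a log2 fold change of -0.49 (SE 0.17, unadjusted p = 0.018, adjusted p = 0.404 by edgeR), Cox6c had the smallest p of all members, and the value without WT-labelled replicates 1 and 2 was -0.20. Its exons overlap Vps13b on the other strand. Ndufa4 had 47.1, 60.1, 54.6 and 57.3 CPM in the KO-labelled libraries, against 106.4, 108, 46.0 and 59.5 CPM in the WT-labelled libraries. Its high values came from WT-labelled replicates 1 and 2, and the log2 fold change of -0.55 (SE 0.26) became 0.055 without them.

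Several complex IV subunits have tissue-specific alternatives, and both genes of a pair were members for Cox4i1 and Cox4i2 and for Cox7a2 and Cox7a1, where one stood far above the other. Cox4i1, the common form, averaged 181 ± 3.19 CPM in KO and 164 ± 31.1 CPM in WT, against 0.501 ± 0.073 and 0.594 ± 0.197 CPM for Cox4i2, the form known from lung and from low oxygen (SD, n = 4 each). Per kilobase they were the most and the least abundant genes of the complex in these cells. Cox7a2, the widespread form, averaged 49.4 ± 5.11 CPM in KO and 52.5 ± 6.504 CPM in WT, against 0.873 ± 0.060 and 1.11 ± 0.789 CPM for Cox7a1, the heart and muscle form. The WT value of Cox7a1 rested on 1 library: replicate 4 had 2.27 CPM and the others 0.529 to 0.940, and its log2 fold change was -0.37 with that library and 0.25 without it. Cox7a2l, a relative that holds complexes III and IV together in supercomplexes, averaged 67.2 ± 1.91 CPM in KO and 65.3 ± 2.88 CPM in WT, a log2 fold change of 0.042 (95% interval -0.10 to 0.18). The liver-type forms Cox6a1 and Cox8a had the most positive values of the complex. Cox6a1 had 63.9, 59.5, 78.6 and 81.2 CPM in KO-labelled against 42.0, 40.0, 58.7 and 72.9 CPM in WT-labelled libraries (log2 fold change 0.41, SE 0.20). Cox8a had 58.8, 51.4, 64.9 and 68.4 CPM in KO-labelled against 37.0, 36.5, 52.0 and 65.4 CPM in WT-labelled libraries (log2 fold change 0.35, SE 0.19). WT-labelled replicates 1 and 2 were the lowest libraries for both. Cox6b1, which bridges the partners of the dimer, averaged 87.3 ± 7.57 CPM in KO and 85.8 ± 24.4 CPM in WT.

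Complex V has a catalytic F1 sector, a ring of c subunits turned by protons, a peripheral stalk that holds F1 still, and other membrane subunits. Its median log2 fold change was 0.079, with 11 positive and 6 negative values. It ran from -0.050 without WT-labelled replicate 2 to 0.20 without WT-labelled replicate 4, and was -0.083 without WT-labelled replicates 1 and 2. Atp5b, the catalytic beta subunit and the most abundant member of all per kilobase, had 723, 674, 747 and 779.8 CPM in the KO-labelled libraries, against 605, 596, 674 and 779.6 CPM in the WT-labelled libraries. The ranges met at their upper end, and the log2 fold change was 0.14 (SE 0.10). The peripheral stalk and the c ring differed in sign. All 4 stalk genes (Atp5f1, Atp5h, Atp5j and Atp5o) had negative values with a median of -0.23, and all 3 c-ring genes had positive values with a median of 0.41. The summed stalk level was 463, 529, 428 and 452 CPM in KO-labelled against 608, 555, 493 and 482 CPM in WT-labelled libraries. The summed c-ring level was 209.8, 161, 222 and 252 CPM in KO-labelled against 131, 131, 169 and 264 CPM in WT-labelled libraries. WT-labelled replicates 1 and 2 were the highest libraries of the stalk sum and the lowest of the c-ring sum. Without them the medians were -0.062 and -0.00076, and the difference between the parts was not tested.

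Within the stalk, Atp5j, coupling factor 6, had 52.5, 55.1, 47.2 and 60.0 CPM in the KO-labelled libraries, against 83.7, 74.7, 50.8 and 67.8 CPM in the WT-labelled libraries. WT-labelled replicate 3 lay inside the KO range, and the log2 fold change was -0.37 (SE 0.15, unadjusted p = 0.036, adjusted p = 0.404 by edgeR). Its exons overlap those of Gabpa, the gene of a transcription factor subunit, on the opposite strand. Atp5h, the d subunit, had 97.0, 115.6, 88.7 and 88.9 CPM in KO-labelled against 144, 134, 102 and 98.5 CPM in WT-labelled libraries (log2 fold change -0.29, SE 0.15). Atp5s, an accessory factor counted with the complex by its symbol, was the least abundant of the 17 per kilobase. It had 4.15, 4.66, 4.91 and 4.28 CPM in KO-labelled against 7.52, 6.62, 4.36 and 5.76 CPM in WT-labelled libraries (log2 fold change -0.43, SE 0.17, unadjusted p = 0.033, adjusted p = 0.404 by edgeR). WT-labelled replicate 3 again lay within the KO range.

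The c ring is encoded by 3 genes whose mature proteins are the same and whose import signals differ. Atp5g1 had 42.0, 40.5, 46.8 and 50.2 CPM in the KO-labelled libraries, against 25.4, 25.9, 38.2 and 45.3 CPM in the WT-labelled libraries (log2 fold change 0.41, SE 0.19). Atp5g2 had 52.5, 33.3, 54.9 and 58.1 CPM in KO-labelled against 16.6, 17.0, 38.6 and 60.8 CPM in WT-labelled libraries (log2 fold change 0.58, SE 0.41). Atp5g3 had 115.4, 87.5, 120.0 and 144 CPM in KO-labelled against 89.3, 87.9, 91.9 and 157 CPM in WT-labelled libraries (log2 fold change 0.13, SE 0.22). Per kilobase Atp5g3 was the most abundant of the 3 in both groups. For all 3 the groups overlapped, and WT-labelled replicate 4 was the highest library for Atp5g2 and Atp5g3. Small subunits of this family have processed pseudogenes in the mouse genome, and no source used here states how the authors' counting treated reads that match several places.

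**Figure D3:**
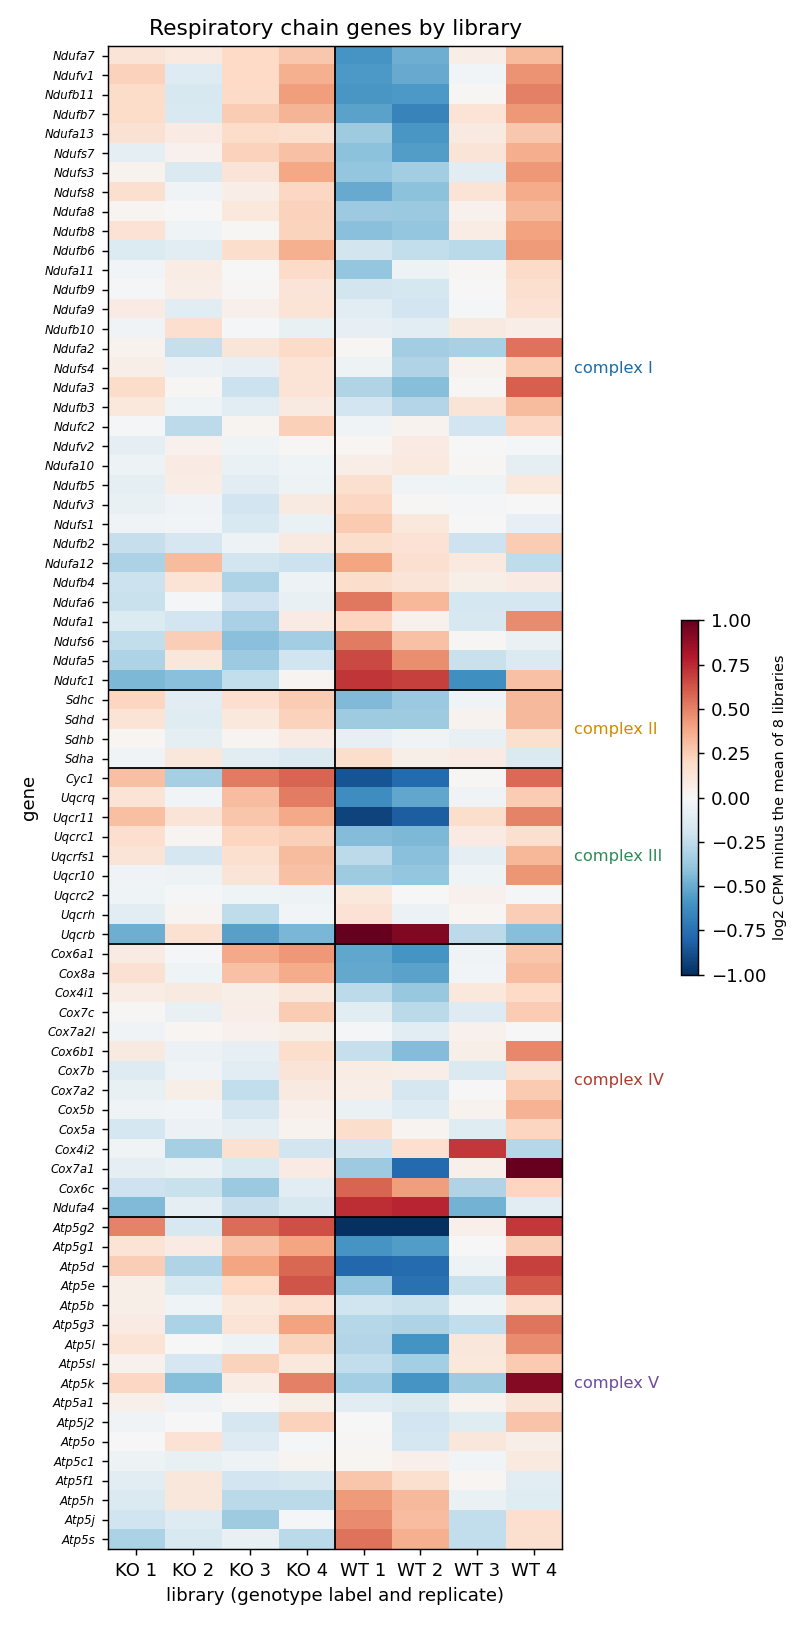
Log2 CPM of each gene shown minus its mean over 8 libraries; KO libraries are on the left and WT libraries on the right, rows are grouped by complex and ordered by log2 fold change, and colours stop at 1 log2 unit either way. WT replicates 1 and 2 are low in rows near the top of each complex and high in rows near its bottom.

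Coding sequences, up to 300 bases from the start codon, of the genes with the 2 most negative (Uqcrb and Ndufc1) and the most positive (Atp5g2) log2 fold changes are shown because base composition went with the fold change over the members, as described next. G and C are in capitals. The sequences come from GENCODE vM21, which uses mm10. The extent of each gene is the one the authors deposited, on mm10: Uqcrb lies at chr13:66900621-66905350, Ndufc1 at chr3:51405479-51408955 and Atp5g2 at chr15:102662868-102671047, all on the minus strand. In the whole coding sequence G and C make up 42.9% of Uqcrb, 52.8% of Ndufc1 and 56.7% of Atp5g2.
Uqcrb: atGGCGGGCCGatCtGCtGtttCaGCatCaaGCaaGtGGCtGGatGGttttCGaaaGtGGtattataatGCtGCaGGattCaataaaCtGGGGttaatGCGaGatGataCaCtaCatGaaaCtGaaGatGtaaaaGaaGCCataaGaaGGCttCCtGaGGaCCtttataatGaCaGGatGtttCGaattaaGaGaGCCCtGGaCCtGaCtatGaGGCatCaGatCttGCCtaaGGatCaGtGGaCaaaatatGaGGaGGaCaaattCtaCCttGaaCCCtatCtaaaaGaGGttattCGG
Ndufc1: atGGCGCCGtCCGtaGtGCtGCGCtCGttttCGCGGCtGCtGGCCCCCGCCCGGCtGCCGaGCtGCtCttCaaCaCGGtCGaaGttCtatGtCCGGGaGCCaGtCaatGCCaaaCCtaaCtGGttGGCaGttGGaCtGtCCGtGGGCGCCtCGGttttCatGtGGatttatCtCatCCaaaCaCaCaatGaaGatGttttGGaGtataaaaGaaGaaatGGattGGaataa
Atp5g2: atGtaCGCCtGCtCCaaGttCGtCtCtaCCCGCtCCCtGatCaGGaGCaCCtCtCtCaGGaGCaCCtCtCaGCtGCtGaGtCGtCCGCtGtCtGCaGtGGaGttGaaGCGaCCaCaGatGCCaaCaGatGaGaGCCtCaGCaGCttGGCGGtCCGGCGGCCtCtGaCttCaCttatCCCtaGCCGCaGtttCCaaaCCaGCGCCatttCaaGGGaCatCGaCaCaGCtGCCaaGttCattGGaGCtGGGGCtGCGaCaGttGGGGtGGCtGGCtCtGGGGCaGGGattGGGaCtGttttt
Uqcrb and Ndufc1 had negative log2 fold changes and Atp5g2 a positive one. By the coding sequence alone Ndufc1 lay nearer to Atp5g2 in base composition than to Uqcrb. By the whole transcript, the measure used next, GC content was 42.2% for Uqcrb, 47.9% for Ndufc1 and 56.7% for Atp5g2, and Ndufc1 lay nearer to Uqcrb.

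WT-labelled replicates 1 and 2 were the lowest pair of the 8 libraries in 38 members (48.7%, beside 34.9% of all genes) and the highest pair in 12 (15.4%, beside 35.3%). The members for which they were lowest, Cyc1 and Atp5g2 among them, had a median transcript GC content of 54.9%, and those for which they were highest, Uqcrb and Ndufc1 among them, 50.0%. Over the 78 members the log2 fold change and transcript GC content had a Spearman correlation of 0.53, beside 0.73 over all genes. Without those libraries the values were 0.0095 and 0.095. These correlations are across genes measured in the same libraries and genes are not independent replicates, so they are descriptions. In single libraries, the deviation of the members from their mean correlated with GC content at 0.49, 0.025, 0.53 and 0.41 in KO-labelled replicates 1 to 4 and at -0.61, -0.54, 0.38 and 0.33 in WT-labelled replicates 1 to 4. In a correction chosen after the data were seen, the trend of each library on GC content was removed: the members' median log2 fold change was then -0.037 and 23 of 78 signs turned. Complex medians were then -0.077 for complex I, with 22 of 34 values negative, 0.022 for complex II, 0.078 for complex III, -0.099 for complex IV and -0.015 for complex V. Uqcrb then had -0.50 and Atp5g2 0.42.

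**Figure D4:**
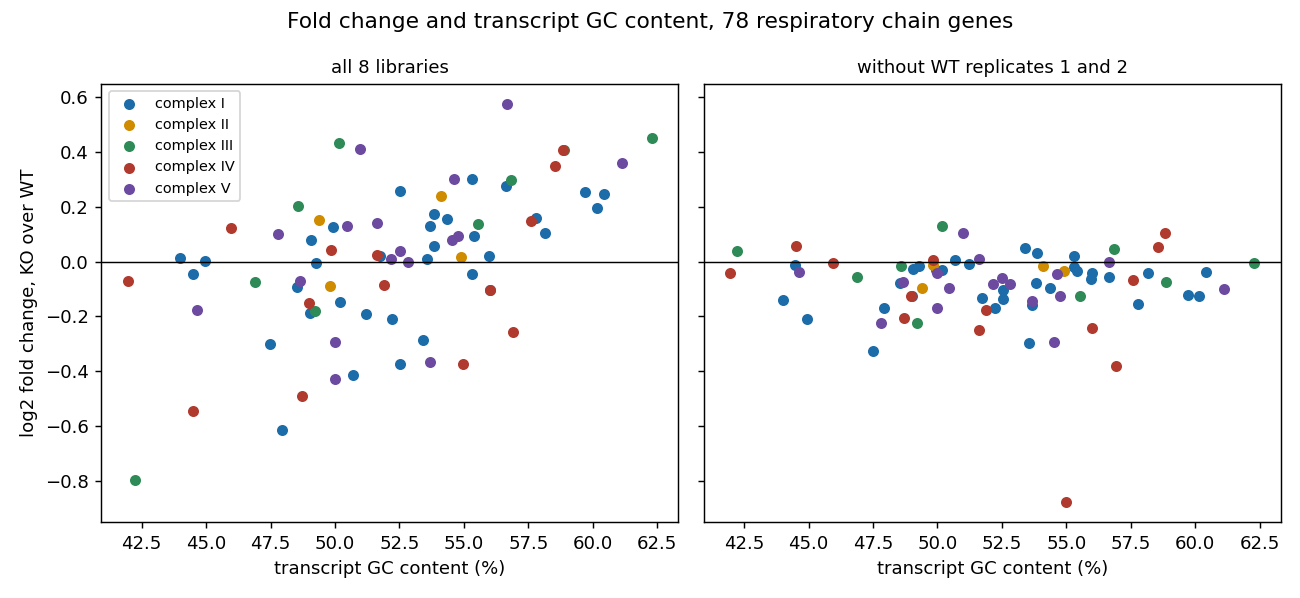
Log2 fold change of KO over WT (vertical) against transcript GC content in percent (horizontal) for the 78 genes, coloured by complex, with all 8 libraries (left) and without WT replicates 1 and 2 (right). The upward slope on the left (Spearman 0.53) is not seen on the right (0.0095), where the lowest point is Cox7a1 at -0.88.

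Without WT-labelled replicates 1 and 2, log2 fold changes were negative in 65 of 78 members, with a median of -0.065, beside 5842 of 11541 genes and a median of -0.00098. Medians were then negative in all 5 complexes, from -0.097 in complex IV to -0.016 in complex III. In that comparison 2 members, Cox5b and Cox7a1 (2.56%, beside 0.996% of all genes) had an unadjusted p under 0.05 and none an adjusted p under 0.05 by edgeR. The KO-labelled libraries had summed levels of 5557 to 6049 CPM, and the WT side then held replicates 3 and 4 alone, at 5564 and 6338 CPM. Signs turned in 43 of the 78 members. With WT-labelled replicate 4 left out instead, the median was 0.13. Of the 18 other settings tried, the one with no filter equals the main fit and could turn no sign. Through all of them 25 members held their sign (32.1%, beside 39.4% of all genes), 18 of them negative and 7 positive. The negative ones included Cox6c, Ndufc1, Atp5j, Atp5s, Atp5h, Ndufs6, Ndufa1 and Sdha, and the positive ones were Uqcrc1, Uqcrq, Cox6a1, Cox8a, Cox7a2l, Atp5b and Atp5g1. Sign alone says little of size: without WT-labelled replicates 1 and 2 the log2 fold change was 0.0039 for Cox7a2l, 0.0086 for Atp5b, 0.044 for Uqcrc1, 0.052 for Cox8a, -0.012 for Sdha and -0.041 for Atp5h.

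The WT-labelled libraries were more spread than the KO-labelled ones. The median SD of members on the log2 scale was 0.14 in KO and 0.32 in WT, and the WT SD was the larger in 71 of 78 members (91.0%, beside 86.9% of all genes). Mitochondrial reads, which come mostly from genes of mitochondrial DNA, were 1.83, 3.17, 1.76 and 1.6% of high-quality reads in the KO-labelled libraries, against 6.07, 7.03, 2.41 and 1.49% in the WT-labelled libraries. The nuclear members ran the other way at the ends of this order: WT-labelled replicate 4, with the smallest mitochondrial share, had the largest nuclear sum, and WT-labelled replicate 2, with the largest share, the smallest sum. After the GC correction the sums were 5543, 5628, 5446 and 5858 CPM in KO-labelled against 5745, 5436, 5531 and 6128 CPM in WT-labelled libraries. The libraries fall into separate clusters on the mitochondrial share, so no correlation is given, and the part of these library differences in the members' fold changes was not tested further.

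**Figure D5:**
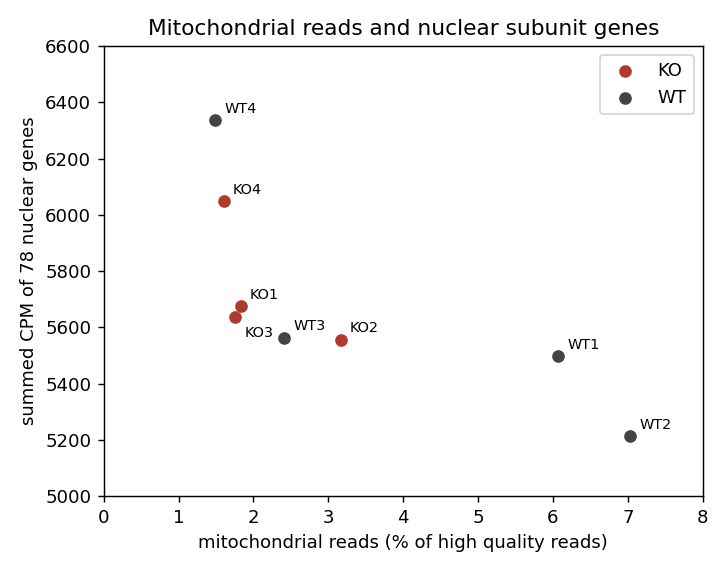
Summed CPM of the 78 nuclear genes (vertical, not from 0) against mitochondrial reads in percent of high-quality reads (horizontal) for each library, KO and WT. WT2 (7.03%) has the smallest sum and WT4 (1.49%) the largest, and the 4 KO libraries lie between 1.6 and 3.17%.

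Markers of other cell types were measured beside these values. Stromal markers (8 of 12 listed were in the table) summed to 29.2, 102, 41.3 and 47.7 CPM in the KO-labelled libraries and 19.2, 56.5, 63.8 and 138 CPM in the WT-labelled libraries. WT-labelled replicate 4, the library with the most member RNA, had the most stromal RNA. KO-labelled replicate 2, next in stromal RNA, had the smallest member sum of its group, 5557 CPM. Neutrophil markers (11 of 12) summed to 286 to 322 CPM in KO and 326 to 365 CPM in WT, ranges that did not overlap. Of the 11, 3 had an unadjusted p under 0.05 by edgeR, all lower in KO (27.3%, beside 6.52% of all genes). None had an adjusted p under 0.05. Endothelial markers (4 of 6) summed to 35.3 to 38.3 CPM in KO and 29.4 to 36.9 CPM in WT, and the single mast cell marker found (1 of 6) had 0.975 to 1.66 CPM in KO and 1.33 to 1.72 CPM in WT. None of the 8 erythroid, 6 B cell and 7 T and NK cell markers had a row. Their part in the members' values was not tested.

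Several features were shared by members without having been used to choose them. Members lie on 19 chromosomes. Their transcripts are short, with a median of 694 bases beside 2140 over all genes. In 23 members (29.5%, beside 13.1% of all genes) another coding gene starts within 1000 bases on the opposite strand, head to head. RefSeq promoter windows, from 250 bases before to 50 after the start on GRCm38.p6, were found for 62 members (67 windows). Letters known from factors that act on respiratory genes were looked for on both strands, beside 11230 windows of all genes in the table. GCATGCGC, the core of the NRF1 motif, was in 14.9% of member windows and 5.39% of table windows. CCGGAAG, read by GABP and other Ets factors, was in 23.9% and 18.4%, AAGATGGCG, known from YY1, in 10.4% and 3.17%, and GGGCGG, the GC box of SP1, in 37.3% and 62.8%. Median GC content was 57.3% in member windows and 60.7% in table windows, and its part in these shares was not tested. The median log2 fold change was 0.13 over the 10 members with the NRF1 letters and 0.0088 over the 52 without, and 0.14 over the 16 with the GABP letters and 0.0050 over the 46 without. It went the other way for YY1, with 0.0099 over 7 members with the letters and 0.042 over 55 without, and for SP1, with 0.012 over 24 and 0.052 over 38. These medians are descriptions over few genes. With WT-labelled replicates 1 and 2 left out, the log2 fold change was -0.097 for Ndufa8, -0.074 for Uqcr11 and -0.044 for Ndufa11. It was -0.034 for Sdhb and -0.00076 for Atp5g2, against 0.044 for Uqcrc1, 0.050 for Ndufa6 and 0.11 for Cox6a1. These genes are among those with the NRF1 letters, with 53.4 to 58.9% transcript GC, beside a median of 52.4% over members. Atp5k and Atp5l hold the letters too. They belong to the other membrane subunits of complex V, 3 genes with 47.8 to 54.5% transcript GC. Without WT-labelled replicates 1 and 2 all 3 of these had negative values, with a median of -0.22. The part of those libraries or of GC content in the motif medians was not tested.

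The NRF1 and GABP letters stood together in 1 window for 5 members, Sdhb, Atp5k, Cox6a1, Atp5l and Uqcr11. The windows of Cox6a1 and Uqcr11, the 2 of these 5 with the smallest unadjusted p by edgeR for KO against WT, are shown. They serve to place the letters, which are in capitals on whichever strand they match. In Cox6a1 the NRF1 letters read on both strands and overlap. The windows are at chr5:115348909-115349208 and chr10:80406772-80407071, both on the minus strand (RefSeq, GRCm38.p6).
Cox6a1: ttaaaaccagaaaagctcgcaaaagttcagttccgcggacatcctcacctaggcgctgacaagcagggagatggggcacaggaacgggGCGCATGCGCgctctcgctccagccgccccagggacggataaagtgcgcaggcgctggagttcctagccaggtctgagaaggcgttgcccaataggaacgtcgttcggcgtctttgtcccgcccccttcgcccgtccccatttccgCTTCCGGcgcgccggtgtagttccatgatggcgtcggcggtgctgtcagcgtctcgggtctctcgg
Uqcr11: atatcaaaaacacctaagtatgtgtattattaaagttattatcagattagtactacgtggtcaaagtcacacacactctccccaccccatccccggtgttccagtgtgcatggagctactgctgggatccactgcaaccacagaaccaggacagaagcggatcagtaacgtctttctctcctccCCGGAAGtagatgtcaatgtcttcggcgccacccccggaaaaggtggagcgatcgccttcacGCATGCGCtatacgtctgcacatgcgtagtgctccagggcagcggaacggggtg
A match of letters is a description and not a bound site. Cox6a1 had one of the more positive fold changes of complex IV, given above. Uqcr11 averaged 30.1 ± 2.19 CPM in KO and 22.6 ± 10.8 CPM in WT (SD, n = 4 each), a log2 fold change of 0.41 (95% interval -0.28 to 1.09). Both were picked by that comparison, so their values do not stand for members with both sets of letters. Sdhb had 0.016, and the 3 membrane genes of complex V that include Atp5k and Atp5l had 0.0099 to 0.099.

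Genes around the chain were read from lists of assembly, supply and regulation, and none of their members passed the threshold (0% of all genes did). Complex I assembly factors (15 of 19 listed were tested) had a median log2 fold change of 0.026 with 8 positive and 7 negative. Ndufab1, the acyl carrier protein that also sits in complex I, averaged 37.9 ± 2.39 CPM in KO and 48.3 ± 10.4 CPM in WT, and Ndufaf4 25.5 ± 1.14 against 31.9 ± 7.48 CPM (SD, n = 4 each). WT-labelled replicates 1 and 2 were the highest libraries for both, and without them the log2 fold changes of -0.35 and -0.32 were -0.064 and -0.00072. Assembly factors of complexes II to V (32 of 34) had a median of 0.042. Among them Cox14, which acts on the first complex IV subunit, had 8.43, 7.45, 10.9 and 11.1 CPM in KO-labelled against 4.86, 5.13, 7.79 and 7.91 CPM in WT-labelled libraries (log2 fold change 0.55, SE 0.21, adjusted p = 0.404 by edgeR), and 0.27 without WT-labelled replicates 1 and 2. Coa4 averaged 8.80 ± 0.466 CPM in KO and 10.7 ± 1.30 CPM in WT. The electron carriers and ubiquinone synthesis (17 of 20) had a median of 0.019, with Etfa at 64.5 ± 2.13 CPM in KO and 72.5 ± 5.03 CPM in WT and Coq9 at 14.5 ± 0.668 against 12.9 ± 0.750 CPM.

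The tricarboxylic acid cycle with pyruvate entry (26 of 26) had a median of -0.050, with Dld, shared by the pyruvate and oxoglutarate dehydrogenases, at 129 ± 14.97 CPM in KO and 162 ± 31.9 CPM in WT and Sucla2 at 66.6 ± 7.11 against 87.9 ± 23.8 CPM. Both were highest in WT-labelled replicates 1 and 2, and without these the log2 fold changes of -0.33 for Dld and -0.40 for Sucla2 were -0.064 and -0.031. The nuclear regulators (9 of 12) had a median of -0.081. Ppargc1b, a coactivator of mitochondrial genes, had 7.35, 6.66, 7.69 and 8.11 CPM in the KO-labelled libraries, against 5.33, 6.26, 5.89 and 6.34 CPM in the WT-labelled libraries. The groups did not overlap, as in 2.64% of all genes (1.22% higher in KO), and the log2 fold change was 0.32 (SE 0.10, unadjusted p = 0.014, adjusted p = 0.404 by edgeR). It was 0.28 without WT-labelled replicates 1 and 2, and 0.021 after the GC correction. Its relative Pprc1 averaged 93.1 ± 3.32 CPM in KO and 82.0 ± 8.68 CPM in WT. Groups also did not overlap for Coa4, Etfa and Apoo, lower in KO, and for Coq9, higher in KO. By list, this held for 2 of 32 assembly factors of complexes II to V and 2 of 17 electron carriers. It held for 1 of 26 in the tricarboxylic acid cycle, 1 of 9 regulators, 1 of 14 inner membrane genes, and 0 in the other lists. Genes that express the mitochondrial genome (22 of 24) had a median of -0.091, turned to 0.021 without WT-labelled replicates 1 and 2. Ssbp1, which binds single-stranded mitochondrial DNA, had 28.0, 32.1, 24.6 and 26.6 CPM in KO-labelled against 65.9, 61.8, 29.9 and 30.3 CPM in WT-labelled libraries (log2 fold change -0.75, SE 0.27, adjusted p = 0.404 by edgeR). Its WT mean rested on replicates 1 and 2, the libraries with the most mitochondrial reads, and the value without them was -0.11. Slirp, which protects mitochondrial mRNAs, averaged 18.7 ± 2.37 CPM in KO and 24.8 ± 5.37 CPM in WT, a log2 fold change of -0.41, or -0.22 without those libraries.

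Import and proteases (30 of 30) had a median of 0.012, with the chaperonin pair Hspd1 at 385 ± 32.7 CPM in KO and 453 ± 54.9 CPM in WT and Hspe1 at 63.3 ± 10.8 against 81.4 ± 18.8 CPM. Without WT-labelled replicates 1 and 2, the highest libraries for both, the log2 fold changes of -0.23 and -0.36 were -0.086 and -0.070. Inner membrane carriers and ATPase regulation (14 of 20) had a median of -0.046. Atpif1, the inhibitor that binds complex V, had 79.4, 121, 78.8 and 81.6 CPM in the KO-labelled libraries, against 219.8, 204, 93.3 and 85.6 CPM in the WT-labelled libraries, which is the order of libraries seen for Uqcrb. Its log2 fold change was -0.74 (SE 0.33) and 0.013 without WT-labelled replicates 1 and 2. Apoo, of the cristae-shaping MICOS complex, averaged 2.26 ± 0.408 CPM in KO and 3.89 ± 1.42 CPM in WT, a log2 fold change of -0.77, or -0.23 without those libraries.

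Members did not vary as 1 block over the libraries. The correlation of a member with the mean of the others over the 8 libraries had a median of 0.70 and was negative for 19 members. It was highest for Cox6b1 (0.94) and lowest for Ndufa10 (-0.74). Outside the members, the genes whose log2 CPM was most like the members' mean over the 8 libraries were Nme1 (Pearson r = 0.98), Bloc1s2 (0.98), 9330159M07Rik (0.97), Tomm22 (0.97) and Rpl36 (0.96). They share the libraries and their depth with the members. Nme1 had 50.9, 52.2, 51.5 and 60.2 CPM in KO-labelled against 50.4, 46.9, 50.3 and 70.1 CPM in WT-labelled libraries, highest in replicate 4 of each group, and its log2 fold change was -0.019.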

How the data were processed

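Messenger RNA libraries of 8 BMM samples were analysed, 4 labelled KO and 4 labelled WT by the genotype label. Per the file headers, the authors aligned reads with STAR to UCSC mm10 and took raw read counts per gene with featureCounts. The submitters' processing notes also name STAR and mm10. No source used here gives versions, the annotation release or the strand setting. Reads of mitochondrial genes and ribosomal RNA, given as other library values by the authors, came from bamutils and bowtie2 per the file headers. The deposited log2 FPKM values, the log2 fold change and the signed fold change score were not used in tests, and the p-values and false discovery rates that the authors deposited are quoted as theirs.

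Counts were fitted with edgeR 4.0.16 in R 4.3.3 (quasi-likelihood test, TMM factors, two-sided), over all 11541 genes, with Benjamini-Hochberg adjustment and a threshold of 0.05. The default expression filter removed no gene. Values are TMM-scaled CPM, and SE and 95% intervals come from the same fit. Members and lists were chosen with earlier results of these data known. Named genes were Ogfrl1, the 4 members of each complex with the smallest p, the most and least abundant per kilobase, the alternative subunit genes, members without overlap between groups, the 2 genes of each other list with the smallest p, and the 5 genes most like the members' mean. Others (Ndufv1, Ndufs1, Uqcr11, Ndufa10, Ndufa8, Ndufa6 and Cox5b among them) fell outside these rules and were named after their values were seen. 1 gene is counted in the totals but not reported here on its own. Transcript GC content was computed from GENCODE vM21 transcripts and was had for all 78 members. Alternatives were RLE and upper-quartile factors, DESeq2 1.42.0, limma-voom (limma 3.58.1), no filter, at least 1 CPM in 4 libraries, the ribosomal RNA percentage as covariate, single libraries left out, WT replicates 1 and 2 left out, also with KO replicate 2, and structural subunits alone. A correction for GC content (lowess of each library's deviation, span 0.3) was added after seeing the data. The fit was tested on simulated data that held no shift of whole libraries with GC content, so that test does not cover such shifts. Each group had 4 libraries, which limits precision, and since the labels do not say that libraries came from separate animals, p-values measure the spread between libraries, which may be technical.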

Additional observations from a re-analysis of the deposited data

Results flagged for a closer look

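Among 122 groups of 4 libraries examined for a library far from the others, 6 held one, by Dixon's test at the 95% level, which sets the gap to the nearest library against the range. Chance alone marks about 1 in 20 such groups. The summed level of complex IV was 939 CPM in KO-labelled replicate 4, against 843 to 852 CPM in the other KO-labelled libraries. Uqcrb had 100.3 CPM in KO-labelled replicate 2, against 62.0 to 65.9 CPM in the others of that label, and Atpif1, the inhibitor of ATP synthase, 121 CPM in the same library, against 78.8 to 81.6 CPM. Atp5g3 had 157 CPM in WT-labelled replicate 4, against 87.9 to 91.9 CPM in the other WT-labelled libraries. Nme1 had 60.2 CPM in KO-labelled replicate 4, against 50.9 to 52.2 CPM, and 70.1 CPM in WT-labelled replicate 4, against 46.9 to 50.4 CPM.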

How the results depend on the processing

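No paired analysis was possible because the labels give the libraries no replicate numbers shared between KO and WT. Under each alternative tried (factors, tools, filters, covariate, GC correction, left-out libraries), 0 members were called at an adjusted p under 0.05, as by edgeR. Over all genes DESeq2 called 1, Cxcl16, a chemokine gene and no member, against 0 by edgeR, which gave 752 at an unadjusted p under 0.05. At that unadjusted threshold there were 4 members by edgeR (5.13%, beside 6.52% of all genes), 8 with DESeq2 (10.3% beside 10.2%), 7 with the ribosomal RNA percentage as covariate (8.97% beside 7.09%), 2 without WT-labelled replicates 1 and 2 (2.56% beside 0.996%), and 1 to 38 with single libraries left out, beside 1.16 to 45.1% of all genes. The members' median ran from -0.015 to 0.13 with single libraries left out, negative without KO-labelled replicate 4 or WT-labelled replicate 2. It was -0.017 with the ribosomal RNA covariate, where 17 of 78 signs turned, -0.065 without WT-labelled replicates 1 and 2, -0.054 without KO-labelled replicate 2 as well, -0.037 after the GC correction and 0.022 for structural subunits alone. The tricarboxylic acid cycle list, at -0.050, had -0.011 with upper-quartile factors, -0.013 with the ribosomal RNA covariate, 0.018 after the GC correction and -0.060 to 0.00060 with single libraries left out. The inner membrane list had -0.065 to -0.0048 with single libraries left out. The nuclear regulators, at -0.081, had 0.056 without WT-labelled replicates 1 and 2. Mitochondrial genome expression, at -0.091, had 0.021 there, 0.033 without KO-labelled replicate 2 as well, and 0.072 after the GC correction. The cause of these shifts was not tested.

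Log2 fold changes of named genes turned sign as follows. Without WT-labelled replicates 1 and 2 they were 0.12 for Ogfrl1, -0.16 for Ndufb8, -0.044 for Ndufa11, -0.015 for Sdhc, -0.095 for Sdhd, -0.034 for Sdhb, 0.037 for Uqcrb, -0.0068 for Cyc1, 0.055 for Ndufa4, -0.067 for Cox4i1, -0.25 for Cox6b1, -0.00076 for Atp5g2, -0.097 for Atp5g3, 0.013 for Atpif1, -0.097 for Bloc1s2, -0.13 for Tomm22 and -0.13 for Rpl36. Without KO-labelled replicate 2 as well they were 0.010 for Ogfrl1, -0.12 for Ndufb8, -0.048 for Ndufa11, -0.029 for Sdhd, -0.0016 for Sdhb, 0.0080 for Ndufa4, -0.069 for Cox4i1, -0.22 for Cox6b1, -0.087 for Bloc1s2, -0.10 for Tomm22 and -0.089 for Rpl36. After the GC correction they were -0.16 for Ndufa11, -0.16 for Sdhb, -0.095 for Cox4i1, -0.0091 for Cox6b1, 0.037 for Uqcrc2, -0.037 for Coq9, -0.024 for Pprc1, 0.13 for 9330159M07Rik and -0.18 for Rpl36. With the ribosomal RNA covariate they were -0.0041 for Ndufb8, -0.041 for Sdhb, -0.10 for Cox6b1, -0.073 for Atp5g3, -0.039 for Bloc1s2, -0.063 for Tomm22 and -0.011 for Rpl36, and with upper-quartile factors 0.013 for Nme1. With single libraries left out, values ran from -0.0093 to 0.075 for Sdhb, -0.39 to 0.0019 for Cox4i2, -0.098 to 0.22 for Cox6b1, -0.60 to 0.25 for Cox7a1, -0.085 to 0.13 for Nme1, -0.031 to 0.17 for Bloc1s2, -0.11 to 0.065 for 9330159M07Rik and -0.042 to 0.13 for Tomm22. The members with the fewest reads, Cox4i2 and Cox7a1, had at least 18 reads in each library, and how far depth limits their precision was not tested.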
